A study of Mus musculus with 25 samples.

Results

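Kazn, which encodes kazrin, and 9 genes of the desmosome and the cornified envelope (Ppl, Evpl, Dsp, Jup, Pkp1, Pkp2, Pkp4, Dsg2 and Dsc2) were examined across 5 murine melanoma lines. The 10 genes were taken by symbol from the 55385 genes of the count tables, and 6 of them (Kazn, Ppl, Jup, Pkp1, Pkp2 and Pkp4) were among the 15247 genes that passed the filter on low counts and were tested. Because these genes were chosen with their levels in these libraries known, their levels and the differences between lines are given as a description without a p-value. RNA-seq was performed on untreated cells cultured to a confluency of 50%, with 5 libraries per line that are labelled as biological replicates. The genotype of WT31 is Nras Q61K, driven by the tyrosinase promoter (Tyr), on an INK4a-/- background, RET carries the human RET proto-oncogene behind the mouse metallothionein promoter, and B16F10 luc2 is a luciferase-bearing line with multiple mutations, among them in Trp53. D4M carries the allele Braf CA together with Tyr::CreER, in which Cre is driven by the tyrosinase promoter, and HCmel12 from a HGF-CDK4(R24C) melanoma. WT31, B16F10 luc2 and RET colonize the liver with high or intermediate efficiency (HIM-melanoma), and D4M and HCmel12 with low efficiency (LM-melanoma). Each genotype is represented by a single line. By the labels and the study's methods, the lines of HIM-melanoma were kept in RPMI, HCmel12 in RPMI with further supplements and D4M in Advanced DMEM/F-12, so that line and medium cannot be told apart for the last 2, nor HIM-melanoma and its medium.

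Library totals lay between 24199083 and 25843286 counts, and TPM values were at hand for 24 of the 25 libraries, all but D4M replicate 1. The summed level of 7 melanocyte markers (Mitf, Sox10, Tyr, Tyrp1, Dct, Pmel and Mlana) lay between 12026 and 30205 counts per 1000000 (CPM) in the libraries of WT31, B16F10 luc2, RET and HCmel12. In D4M it was 6.54 to 12.1 CPM in replicates 2 to 5 and 59.6 CPM in replicate 1. D4M also had a summed level of 451 to 674 CPM for 5 fibroblast markers, with at most 88.6 CPM in the other lines. This sum was carried by Col1a2 (mean 354 CPM), Col1a1 (144 CPM) and Pdgfra (59.5 CPM), whereas Dcn was at 0.335 CPM and Lum at 0 in every D4M library. The label melanoma therefore goes with melanocyte markers in 4 of the 5 lines. A set of 9 keratinocyte markers summed to 2.36 to 19.7 CPM over all 25 libraries, and between 1 and 6 of the 9 were at 0 in every library of a line. In bulk RNA, fewer cells with a transcript and less of it per cell cannot be told apart.

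Desmosomes are spot-like junctions that tie the intermediate filaments of neighbouring cells together. Desmosomal cadherins (desmogleins and desmocollins) span the membrane and bind those of the next cell, armadillo proteins (plakoglobin and the plakophilins) hold their cytoplasmic tails, and plakins (desmoplakin and its relatives envoplakin and periplakin) reach from there to the filaments. Envoplakin and periplakin also form an early scaffold of the cornified envelope of keratinocytes, and kazrin was found as a protein that binds periplakin. Kazrin occurs as several isoforms that differ at both ends, and the longest carries SAM domains like those of the liprins. Melanocytes are held in the epidermis mainly by classical cadherins and are not known for desmosomes of their own.

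In GRCm38 with the GENCODE M21 annotation, Kazn lay on the minus strand at chr4:142102390-142239401 with 9 annotated transcripts. The pair of qPCR primers of the study for Kazn is shown here because the counts add up all 9 transcripts, whereas the primers match only 1 of them. In lower case, 5′ to 3′ and without a marked part, they were:
forward primer: gcgatatcgacctgaaggagta
reverse primer: tgagtatgtgcttcccgctg
Both matched 1 of the 9 transcripts, Kazn-206, at a product length of 138 bases, and neither matched a transcript of another gene. The 5′ end of the forward primer fell on position 142109293 of chromosome 4, in exon 11 of the 14 exons of Kazn-206, and that of the reverse primer on position 142108592, in exon 12. Kazn-206 was 4499 bases long. Kazn-201 and Kazn-202, with 3843 and 3323 bases, ended before these exons. Levels from the count tables and from these primers can thus concern different sets of transcripts. In its qPCR figure the study lists Kazn among the genes most reduced in D4M and HCmel12 relative to the other lines, which is also the direction of the counts.

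**Figure D1:**
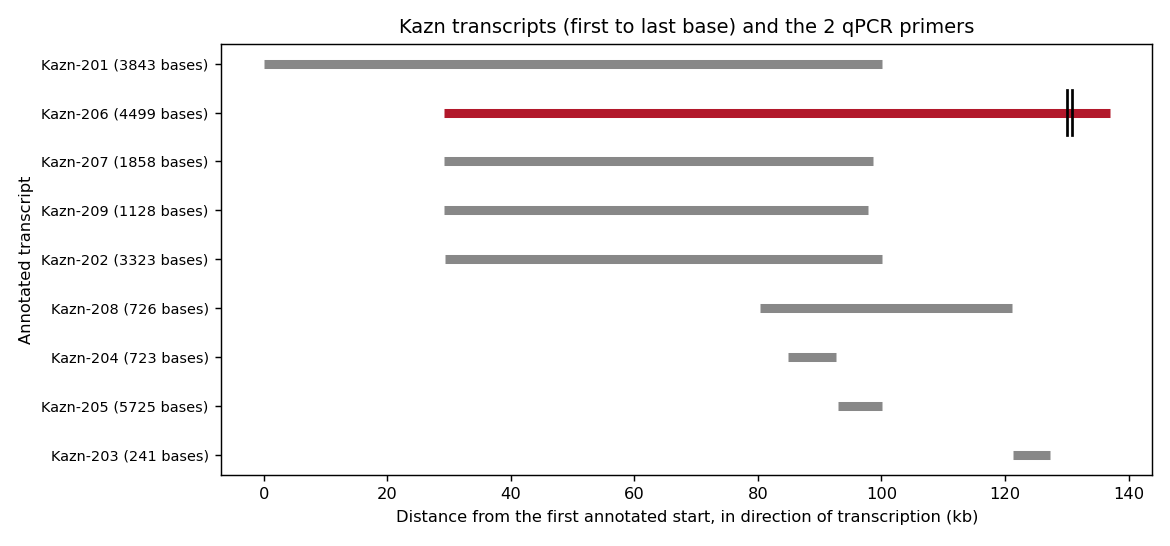
Annotated Kazn transcripts drawn from first to last base (without their exons) against the distance in kb from the first start in the direction of transcription. The black lines mark both qPCR primers, which lie in Kazn-206 (red, 4499 bases) and beyond the end of Kazn-201 (3843 bases) and Kazn-202 (3323 bases).

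The 250 bases before both Kazn starts of the RefSeq table (GRCm38.p6, minus strand) are given because Kazn was the member that separated HIM-melanoma from LM-melanoma. Capitals mark a match to CAGGTG or its reverse complement CACCTG, the E-box bound by ZEB and SNAI repressors.
Kazn start 1, chr4:142239402-142239651: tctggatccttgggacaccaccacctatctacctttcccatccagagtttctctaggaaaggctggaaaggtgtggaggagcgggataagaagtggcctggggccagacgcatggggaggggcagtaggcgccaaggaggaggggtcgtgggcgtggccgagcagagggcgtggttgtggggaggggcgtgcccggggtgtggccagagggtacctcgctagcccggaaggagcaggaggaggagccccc
Kazn start 2, chr4:142215459-142215708: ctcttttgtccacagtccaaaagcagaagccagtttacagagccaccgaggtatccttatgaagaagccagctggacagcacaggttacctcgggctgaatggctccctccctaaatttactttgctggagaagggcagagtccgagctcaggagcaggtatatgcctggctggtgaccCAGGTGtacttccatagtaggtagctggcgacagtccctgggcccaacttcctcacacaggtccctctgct
The first region, directly before the first GENCODE start, had a GC content of 65.2% and held none of the motifs searched on both strands, which were the E-box CACGTG, the E-box CATGTG with its complement, the repressor site above and the AP-1 site TGANTCA. The second region, with a GC content of 54.4%, held 1 CAGGTG that began 71 bases before the start (position -71) and no other of these motifs. This second start is not the start of an annotated GENCODE transcript of Kazn. The bases before the start of Kazn-206, at position 142210206, were not searched. CAGGTG or its complement was present in 17.2% of all 32851 upstream regions of this length, CACGTG in 6.02%, CATGTG or its complement in 12.3% and TGANTCA in 6.75%. Upstream entries were also at hand for Dsp, Jup and Pkp4, and of these only the second start of Pkp4 held a match, a CAGGTG at position -47.

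Kazn was the member whose level followed the division into HIM-melanoma and LM-melanoma. It reached 33.6, 34.4, 42.8, 33.4 and 59.1 CPM in replicates 1 to 5 of WT31, where CPM relate the counts to the library size scaled by TMM factors. In B16F10 luc2 the levels were 38.7, 32.5, 24.7, 26.9 and 33.5 CPM, and in RET 7.39, 9.73, 8.67, 7.81 and 6.99 CPM. HCmel12 held 0.0401, 0.0797, 0, 0.0409 and 0 CPM, which is 4 counts over the whole line. D4M held 0.138 CPM in replicate 1 and 0 in replicates 2 to 5. Every HIM-melanoma library was thus above every LM-melanoma library, and WT31 and B16F10 luc2 overlapped, whereas RET was below both. Over all genes tested, the libraries of HIM-melanoma were all above those of LM-melanoma for 3.88%.

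WT31 had a mean of 40.7 ± 11 CPM (SD, n = 5), B16F10 luc2 one of 31.2 ± 5.57 and RET one of 8.12 ± 1.10, with 0.0321 ± 0.0334 in HCmel12 and 0.0276 ± 0.0617 in D4M. The order of the lines was WT31, B16F10 luc2, RET, HCmel12 and D4M. WT31 and B16F10 luc2 differed by 0.855 of the larger SD, with a log2 fold change of 0.36 (SE 0.13), and this value was 0.22 without WT31 replicate 5, the library at 59.1 CPM. RET was lower than WT31 by a fold of 5.01 and lower than B16F10 luc2 by a fold of 3.85, and both differences exceeded the spread between replicates. HCmel12 and D4M, next to each other at the low end, differed by 0.0739 of the larger SD.

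The folds of HIM-melanoma over LM-melanoma rested on 3 counts in D4M and 4 in HCmel12 and are given with a 95% exact interval that covers counting error only. Kazn was 1531-fold higher in WT31 than in D4M (524 to 7428) and 1260-fold higher than in HCmel12 (493 to 4641). For RET, the lowest line of HIM-melanoma, the folds were 306 (104 to 1484) over D4M and 251 (98.2 to 927) over HCmel12. The 3 Kazn counts of D4M were all in replicate 1, the library that also held 588 counts of Tyrp1 and 233 of Dct, pigment genes that had at most 67 and 28 counts in the other D4M libraries. Whether these reads share a source was not tested. Without this library, Kazn was at 0 in the 4 remaining D4M libraries, and WT31 was at least 1235-fold, B16F10 luc2 at least 949-fold and RET at least 246-fold higher, taking 3 counts over these 4 libraries as the limit that a count of 0 allows.

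**Figure D2:**
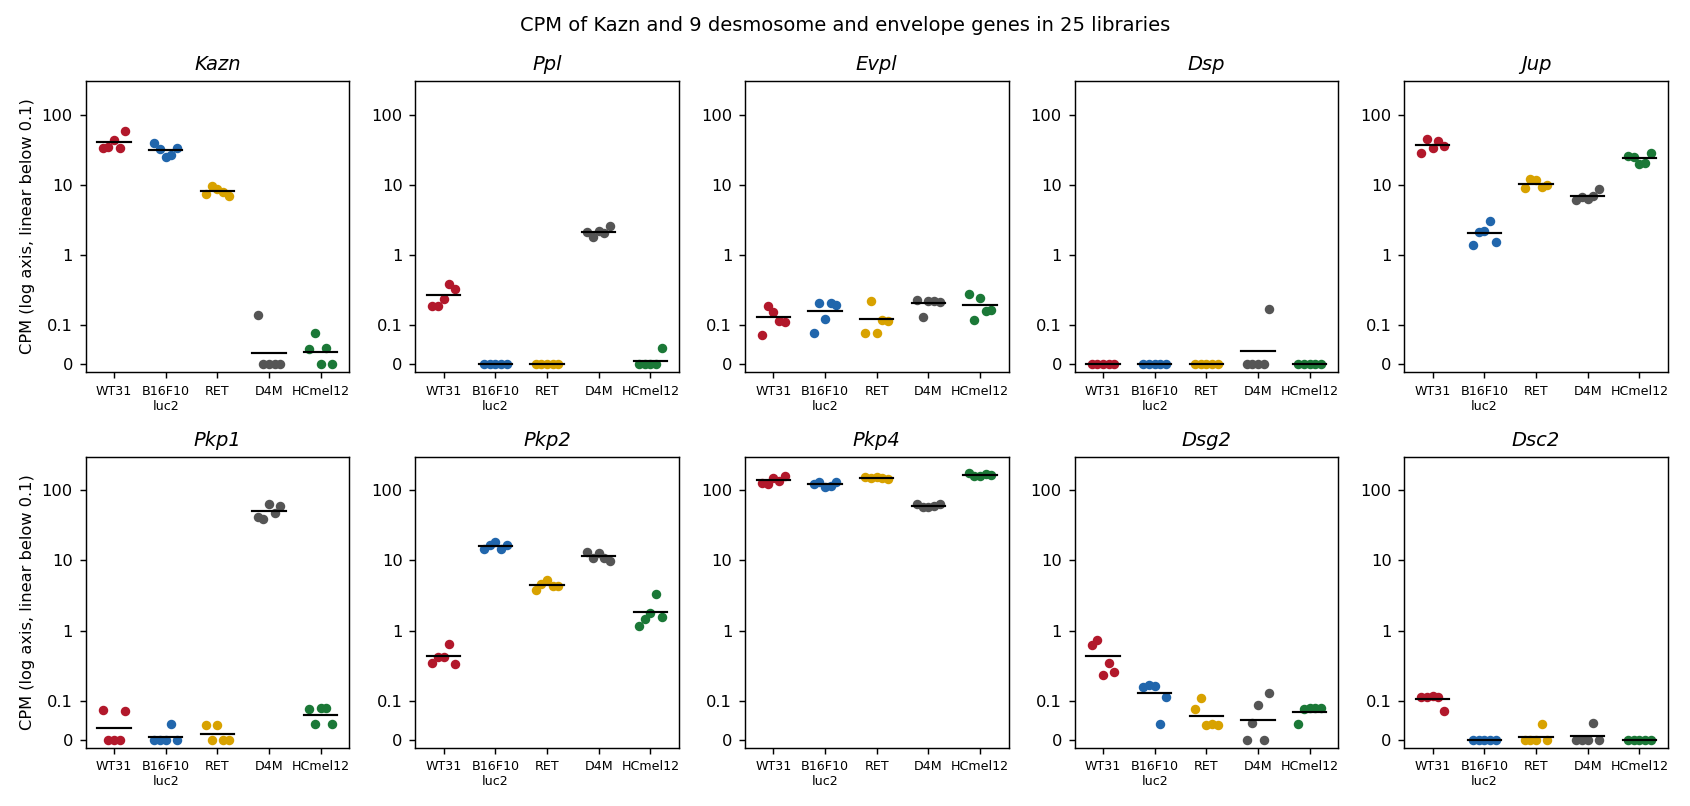
CPM of the 10 genes in each of the 25 libraries (points, by replicate from left to right) with the line mean (bar), on a logarithmic axis that is linear below 0.1 CPM. Kazn lies between 6.99 and 59.1 CPM in HIM-melanoma and at or below 0.138 CPM in LM-melanoma, whereas Pkp1 is high in D4M and Pkp4 is present in every library.

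The 3 plakins among the members were low in all lines. Ppl (chr16:5086291-5132421, minus strand) encodes periplakin, the plakin that kazrin binds. It had 46, 41, 49, 47 and 61 counts in replicates 1 to 5 of D4M, 5, 5, 6, 10 and 9 in WT31, 1 count in all of HCmel12 and 0 in every library of B16F10 luc2 and RET. All D4M libraries were above all WT31 libraries, and these were above all others. The level was 2.16 ± 0.28 CPM in D4M and 0.266 ± 0.0883 CPM in WT31 (n = 5 each), a fold of 8.14. Against the lines at 0, with 3 counts over the line as the limit, D4M was at least 89.4-fold higher than B16F10 luc2 and at least 92.7-fold higher than RET, and WT31 at least 11-fold and 11.4-fold. Kazn and Ppl were therefore found together above the limit in WT31, Kazn without Ppl counts in B16F10 luc2 and RET, and Ppl with almost no Kazn counts in D4M.

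Evpl (chr11:116220559-116238077, minus strand), encoding envoplakin, the partner of periplakin, had between 2 and 7 counts in each of the 25 libraries and was not tested. Its means ran from 0.123 ± 0.059 CPM in RET to 0.204 ± 0.0401 CPM in D4M (n = 5 each), and the ranges of the lines overlapped in all 10 pairs. Dsp (chr13:38151294-38198577, plus strand), encoding desmoplakin, the plakin found in every desmosome, was at 0 in 24 libraries and had 4 counts in D4M replicate 5. A count of 0 over 5 libraries allows a level of 0.023 to 0.027 CPM at 3 counts per line. For Evpl, the largest fold between lines was 1.64 (D4M over RET, 0.829 to 3.32 by counting error).

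Among the armadillo proteins, Jup (chr11:100368958-100397763, minus strand) encodes plakoglobin, which is shared by desmosomes and adherens junctions. Its levels were 28.1, 44.7, 33.1, 42.5 and 36.2 CPM in WT31, 25.9, 24.9, 19.5, 20.3 and 28.6 CPM in HCmel12 and 8.86, 12.2, 11.7, 9.17 and 9.92 CPM in RET. D4M had 6.07, 6.69, 6.32, 6.89 and 8.65 CPM, and B16F10 luc2 1.39, 2.11, 2.23, 3.05 and 1.54 CPM. Only WT31 and HCmel12 overlapped, by the lowest WT31 library. The order was WT31, HCmel12, RET, D4M and B16F10 luc2, so that lines of HIM-melanoma stood at both ends. WT31 exceeded B16F10 luc2 18-fold (log2 fold change 4.19, SE 0.24), and RET exceeded D4M, its neighbour, 1.5-fold (log2 fold change 0.58, SE 0.19).

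Counts and TPM of the same library together give the mean length of the transcripts to which the reads were assigned. For Jup it was 3059 to 3115 bases in WT31, 2848 to 3004 in HCmel12 and 2672 to 3008 in 4 D4M libraries. In RET it was shorter, with 1942 to 2626 bases, and in B16F10 luc2 it ranged from 1829 to 3190 bases at 35 to 74 counts per library. The RET libraries did not overlap those of WT31, D4M or HCmel12. The TPM of Jup in RET is therefore higher in relation to its CPM than in WT31. For Kazn, the lengths of 3132 to 3432 bases in WT31, 2948 to 3397 in B16F10 luc2 and 2835 to 3637 in RET overlapped, with medians of 3394, 3282 and 3322 bases, all shorter than Kazn-206. The lines also overlapped for Pkp4 (3238 to 3812 bases), and Pkp2 lay within 2868 to 2890 bases in the 4 lines with at least 20 counts per library.

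**Figure D3:**
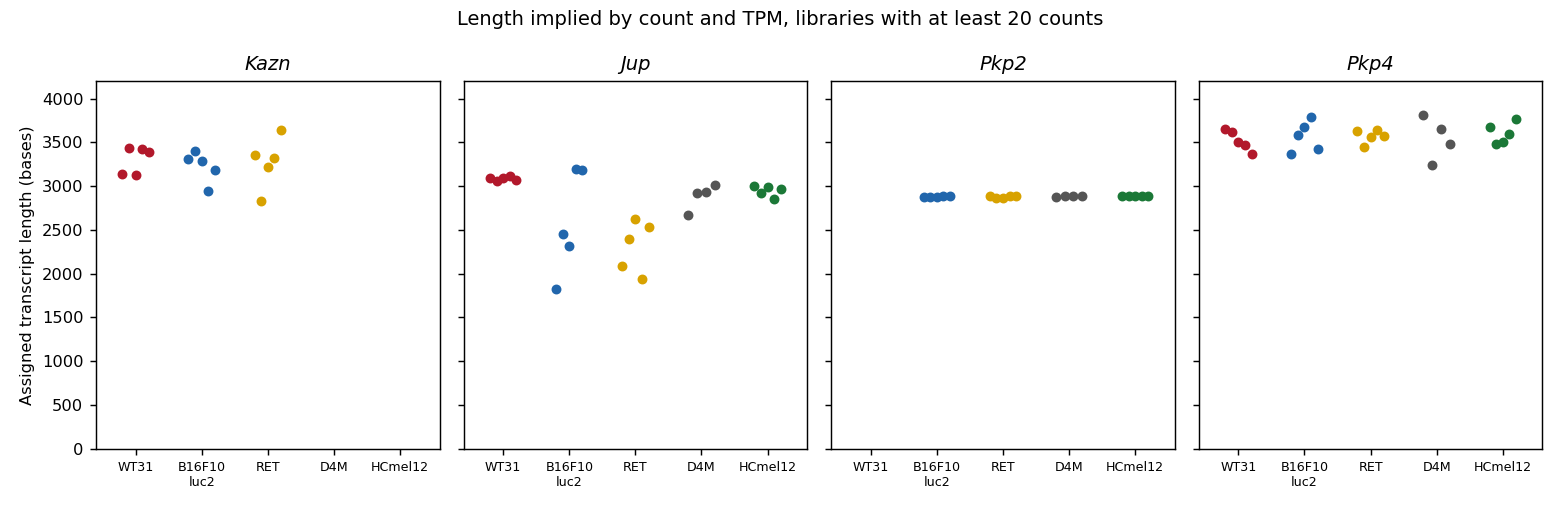
Mean length in bases of the transcripts to which the reads of Kazn, Jup, Pkp2 and Pkp4 were assigned, 1 point per library with at least 20 counts and TPM. The RET libraries lie at 1942 to 2626 bases for Jup, below those of WT31 (3059 to 3115), D4M and HCmel12, whereas the lines overlap for Kazn and Pkp4.

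The plakophilins link desmosomal cadherins and plakoglobin to desmoplakin and each had its own distribution. Pkp1 (chr1:135871395-135919207, minus strand), typical of the upper layers of stratified epithelia, was a gene of D4M with 41.5, 38.6, 64.5, 47.9 and 58.9 CPM. The 20 libraries of the other lines held at most 2 counts each. The sums were 8 counts in HCmel12, 4 in WT31, 2 in RET and 1 in B16F10 luc2. Relative to HCmel12, D4M was 781-fold higher (95% exact interval 396 to 1811, counting error only), and relative to WT31 1657-fold (647 to 6084). The reads of Pkp1 in D4M were assigned to transcripts of 4690 to 4750 bases.

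Pkp2 (chr16:16213318-16272712, plus strand), the plakophilin of the heart and of simple epithelia, was highest in B16F10 luc2 with 14.8, 16.6, 18.6, 14.5 and 16.5 CPM. D4M followed with 13.2, 11, 12.6, 10.7 and 9.8 CPM and RET with 3.80, 4.64, 5.28, 4.28 and 4.40 CPM. HCmel12 had 1.16, 1.47, 1.78, 3.31 and 1.59 CPM, with replicate 4 above the others, and WT31 0.342, 0.418, 0.427, 0.654 and 0.332 CPM. No lines overlapped, and the order was B16F10 luc2, D4M, RET, HCmel12 and WT31. B16F10 luc2 exceeded WT31 37.4-fold (28.7 to 49.5 by counting error) and D4M 1.42-fold (log2 fold change 0.50, SE 0.11). WT31, the line with the most Jup, thus had the least Pkp2, and B16F10 luc2 the reverse.

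Pkp4 (chr2:59160850-59355208, plus strand) belongs to the p120-catenin branch of the family and is found at adherens junctions as well as desmosomes. It was above 50 CPM in every library, with means of 166 ± 8.14 CPM in HCmel12, 150 ± 3.35 in RET, 139 ± 15.7 in WT31, 122 ± 9.21 in B16F10 luc2 and 60.4 ± 2.74 in D4M (n = 5 each). The D4M libraries, between 57.9 and 63.7 CPM, were below all others, which lay between 113 and 178 CPM. WT31, with 122 to 161 CPM, overlapped RET, HCmel12 and B16F10 luc2, while RET and HCmel12 did not overlap at 145 to 154 and 157 to 178 CPM. The fold of HCmel12 over D4M was 2.74.

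The desmosomal cadherins were close to the limit of detection. Dsg2 (chr18:20558074-20604521, plus strand) encodes desmoglein-2, the most widespread desmoglein, and had 16.3, 19.5, 6, 9 and 7 estimated counts in WT31. It had 4, 4, 4, 1 and 3 counts in B16F10 luc2 and at most 3 counts in each library of RET, D4M and HCmel12. All WT31 libraries were above all others, and the folds ran from 3.40 over B16F10 luc2 (1.94 to 6.36 by counting error) to 8.26 over D4M (3.58 to 23.5). Dsc2 (chr18:20030633-20059554, minus strand), encoding desmocollin-2, had 3, 3, 3, 3 and 2 counts in WT31, 1 count in RET, 1 in D4M and 0 in the other lines. With 3 counts over the line as the limit, WT31 was at least 4.39-fold higher than B16F10 luc2. Of the 7 other desmosomal cadherins none was tested and only Dsg1a and Dsg1b exceeded 3 counts in a library, in WT31, where they reached 5.0 and 5.7 counts and summed to 21.8 and 16.2. These are close paralogs, so that reads may have been divided between them.

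Levels of different genes are comparable only per transcript length, as TPM (transcripts per 1000000). On this scale Pkp4 was the highest member in every line, at 66.5 TPM in HCmel12, 64.4 in WT31, 62.2 in RET, 51.0 in B16F10 luc2 and 23 in D4M (means, n = 5, D4M n = 4). The second member was Kazn in WT31 (20 ± 5.42 TPM, beside 19.4 ± 3.62 for Jup) and in B16F10 luc2 (14.3 ± 2.54), Jup in RET (6.63 ± 0.801) and HCmel12 (11.7 ± 1.95), and Pkp1 in D4M (15.1 ± 3.54). Kazn stood at 62.8% of the ranking of genes above 0 TPM in RET, at 74.1% in B16F10 luc2 and at 77.2% in WT31. Ppl, Evpl, Dsp, Dsg2 and Dsc2 were below 0.5 TPM in each line. A line with transcripts of a desmosomal cadherin, plakoglobin, a plakophilin and desmoplakin above 1 TPM at the same time was not found, since Dsp and both cadherins were below that level everywhere.

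**Figure D4:**
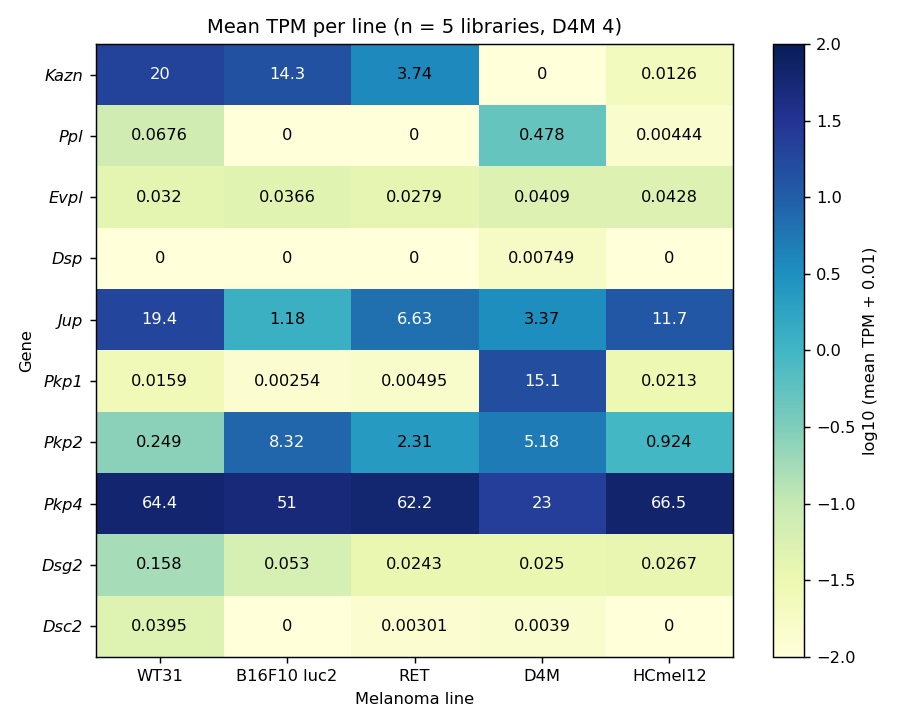
Mean TPM of the 10 genes (vertical) in the 5 lines (horizontal), with the value printed in each field and the colour on a log10 scale after adding 0.01. Pkp4 is highest in each line (23 to 66.5 TPM), Kazn is at 3.74 to 20 TPM in HIM-melanoma and at or below 0.0126 TPM in LM-melanoma, and Dsp reaches 0.00749 TPM.

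By the criterion used for all genes (adjusted p under 0.05 in voom and limma with one sign), Kazn met the definition of a commonly regulated gene, higher in each HIM-melanoma line than in both LM-melanoma lines, and it was the only 1 of the 6 tested members to do so. Commonly higher genes made up 6.53% and commonly lower genes 6.4% of all genes tested. Set apart from each other line were Kazn and Jup as higher in WT31 (13.8% of all genes), Pkp2 as lower in WT31 (11.1%) and higher in B16F10 luc2 (8.81%), Jup as lower in B16F10 luc2 (6.83%), Ppl and Pkp1 as higher in D4M (20%), Pkp4 as lower in D4M (15.7%) and Pkp4 as higher in HCmel12 (9.56%). The call of Kazn in WT31 over B16F10 luc2 was lost without WT31 replicate 5 (log2 fold change 0.22), without B16F10 luc2 replicate 3 (0.28) or replicate 4 (0.31), and with no filter beyond 1 count in any library (0.37), so that the level of Kazn is not firmly set apart between these lines. That of Pkp4 in HCmel12 over RET was lost under most alternatives, among them edgeR's test, the replicate block and leaving out any RET library (RET minus HCmel12 -0.15 to -0.13). Between WT31 and B16F10 luc2, 5 of the 6 members passed (72.8% of all genes), as against HCmel12 (70.4%), with 4 against RET (73.2%) and 6 against D4M (76.1%). For B16F10 luc2 there were 4 against RET (51.5%), 6 against D4M (77.7%) and 4 against HCmel12 (69.1%). RET gave 6 against D4M (77.1%) and 4 against HCmel12 (67.2%), and D4M 5 against HCmel12 (72.5%). Libraries without overlap with any other line were found for Pkp2 below in WT31 (7.06% of all genes) and above in B16F10 luc2 (6.27%), for Jup below in B16F10 luc2 (4.75%), for Ppl and Pkp1 above in D4M (16.7%) and for Pkp4 below in D4M (11.5%), with no tested member above in WT31 alone (9.88%). No tested member had all its HIM-melanoma libraries below those of LM-melanoma (4.09%). Nothing is read from these counts, since the members were chosen on these libraries. The share of 31-base sequences of a member that also occur in another gene was at most 2.03% (Jup), with 1.2% for Kazn and 1.34% for Ppl.

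The question whether other genes of these structures were distributed like the members was addressed with lists of junction, filament and envelope genes without the 10 members. Of 125 listed genes 123 were in the tables, 91 exceeded 3 counts in a library and 62 were tested. Commonly higher in HIM-melanoma were 2 of the 62, Arvcf and Krt80, and commonly lower 5 (Rhoa, Cstb, Cdh2, F11r and Snai1), where 6.53% and 6.4% of all genes were. D4M differed from each other line most often, with 26 of the 62 listed genes higher and 13 of the 62 lower. Over all genes D4M also had the largest shares, 20% higher and 15.7% lower. The lists were chosen with earlier results of these data known, so that neither likeness nor excess is read from the counts by line. WT31 had 10 higher and 5 lower (13.8% and 11.1% of all genes) and HCmel12 7 and 5 (9.56% and 6.85%). B16F10 luc2 had 5 and 3 (8.81% and 6.83%), and RET 3 and 1 (7.07% and 5.06%). The median log2 fold change of the listed genes was -0.35 for HIM-melanoma minus LM-melanoma and 0.43 for D4M minus the other lines. These medians were -0.42 and 0.27 when line means below the level of 3 counts in a library of mean size were raised to that level. For all genes tested they were near 0.

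Arvcf, a p120-type catenin that binds classical cadherins and is a described partner of kazrin, shared the direction of Kazn at a far smaller size. It reached 13.2 ± 1.62 CPM in B16F10 luc2, 6.96 ± 0.367 in RET and 6.75 ± 1.36 in WT31, and 3.70 ± 0.539 in HCmel12 and 1.88 ± 0.425 in D4M (n = 5 each). The 6 log2 fold changes lay between 0.85 (WT31 minus HCmel12, adjusted p = 2.4e-05) and 2.82 (B16F10 luc2 minus D4M). Arvcf kept this call under each scaling and test tried, but not when a log2 fold change of at least 1 was required, since 0.85 is below that limit. Among 10 tested kazrin partners and SAM-domain relatives, 3 were higher and 4 lower in D4M than in each other line (20% and 15.7% of all genes). The liprin-type gene Ppfibp2 fell in D4M, with 2.07 ± 0.568 CPM against means of 34.5 to 63.1 CPM. Ppfia2, another liprin gene, was a transcript of HCmel12, at 17.3 ± 2.12 CPM, whereas no library of another line held more than 7 counts. Rhoa, a small GTPase regulated at junctions, was lower in HIM-melanoma by 0.13 to 0.96 on the log2 scale, and lost the call when library size alone was used for scaling (WT31 minus HCmel12 -0.08, adjusted p = 0.083).

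Of the other armadillo proteins, Ctnnb1 (beta-catenin, the counterpart of plakoglobin at adherens junctions) was lower in D4M, at 560 ± 17.3 CPM with means of 1091 to 1271 CPM in the other lines. Ctnnd1 (p120-catenin) was highest in WT31 at 333 ± 27.0 CPM and lowest in HCmel12 at 163 ± 9.98 CPM. Pkp3, the remaining plakophilin, was not tested and had 8 to 12 counts in D4M and at most 7 in any other library. Of the other plakins, Plec (plectin, a linker of filaments to several junctions) was higher in D4M with 918 ± 74.6 CPM and means of 39.8 to 63.7 CPM elsewhere, where the other lines minus D4M gave log2 fold changes of -4.53 to -3.87. Dst (dystonin) was higher in WT31 at 420 ± 81.5 CPM, beside 182 to 223 CPM. Macf1 was at 125 to 198 CPM in the line means and was set apart in no line. Per transcript length, Dst was at 40.3 to 106 TPM and Macf1 at 39.7 to 64.6 TPM in the line means, and Plec at 79.5 TPM in D4M and 3.77 to 6.2 TPM elsewhere, whereas Ppl, Evpl and Dsp were below 0.5 TPM.

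Classical cadherins, which form adherens junctions, were also listed. Cdh2 (N-cadherin) was commonly lower in HIM-melanoma, at 371 ± 25.8 CPM in D4M and 238 ± 33.3 in HCmel12 against 151 to 193 CPM, with RET minus HCmel12 as the smallest difference (-0.30, adjusted p = 0.0058). Cdh1 (E-cadherin) was higher in HCmel12 than in each other line at 7.26 ± 4.58 CPM, with a range of 3.81 to 15.2 CPM. Cdh3 (P-cadherin) and Cdh11 were transcripts of WT31 with 17 ± 5.75 and 12.4 ± 3.84 CPM, and had at most 3 counts in any other library. Nectin1 was higher in D4M (22 ± 3.31 CPM). At tight junctions, F11r (JAM-A) was commonly lower in HIM-melanoma, at 36.8 ± 5.75 CPM in HCmel12 and 6.89 ± 1.31 in D4M against 0.553 to 0.972 CPM. Perp, a membrane protein needed for desmosomes in skin, was a transcript of RET at 4.05 ± 1.23 CPM with at most 2 counts in other libraries.

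Keratins, to which desmosomes attach in epithelia, were distributed unevenly. Krt80 was commonly higher in HIM-melanoma, at 34.7 ± 2.36 CPM in B16F10 luc2, 25.3 ± 7.17 in WT31 and 19.4 ± 4.41 in RET against 8.16 ± 5.26 in HCmel12 and 0.222 ± 0.137 in D4M. Krt20 reached 59.0 ± 8.93 CPM in D4M and was at 0 in all other libraries, and Krt13 reached 8.67 ± 2.94 CPM in D4M with 1 count elsewhere. Krt23 was at 10.0 ± 4.34 CPM in WT31 and 0 elsewhere. Krt10, named here after its values were seen, was at 2.47 ± 0.358 CPM in D4M, 1.99 ± 0.313 CPM in WT31 and 0 elsewhere. Of the other filament genes, the neurofilaments Nefl (156 ± 49.3 CPM) and Nefm (66.6 ± 17.6 CPM) were higher in D4M and Ina (62.0 ± 5.89 CPM) in WT31. Des (desmin), which desmosomes anchor in the heart, was at 26.2 ± 4.23 CPM in B16F10 luc2, 15.0 ± 3.32 CPM in HCmel12 and 3.39 ± 0.295 CPM in RET. Its mean was 0.219 CPM in WT31 and 0.0356 CPM in D4M.

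In the list of cornified envelope genes 5 of 23 were tested and 4 of these were higher in D4M (20% of all genes). They were Cdsn (corneodesmosin, an adhesive protein of the horny layer) and Anxa1, S100a10 and S100a11, which many cell types besides keratinocytes express. Cdsn varied from 12.8 to 111 CPM within D4M, with a line mean of at most 2.33 CPM elsewhere. Cstb was commonly lower in HIM-melanoma, but not when scaled by library size alone (RET minus D4M -0.04, adjusted p = 0.66). Of the epithelial regulators, Klf4 (101 ± 13.3 CPM) and Klf5 (17.2 ± 1.32 CPM) were higher in D4M, and Grhl3 (2.96 ± 1.36 CPM) was higher in WT31. Of 6 repressors of epithelial genes, 4 were higher in D4M than in each other line (20% of all genes), namely Zeb1 (107 ± 7.58 CPM), Twist1 (79.1 ± 11.7), Twist2 (23.5 ± 3.74) and Snai1 (19.3 ± 4.22). Zeb2, named here after its values were seen, was lower in D4M than in each other line (15.7% of all genes), at 99.8 ± 9.99 CPM with means of 128 to 295 CPM elsewhere. D4M, in which Pkp1 and Ppl were higher than in the other lines, was thus also the line with the highest Zeb1, Twist1 and Snai1, the lowest Zeb2, the highest Col1a1, Col1a2 and Pdgfra and nearly no melanocyte markers, and the part of these in the junction genes was not tested. Snai1 was commonly lower in HIM-melanoma, with log2 fold changes of -8.94 to -3.45.

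**Figure D5:**
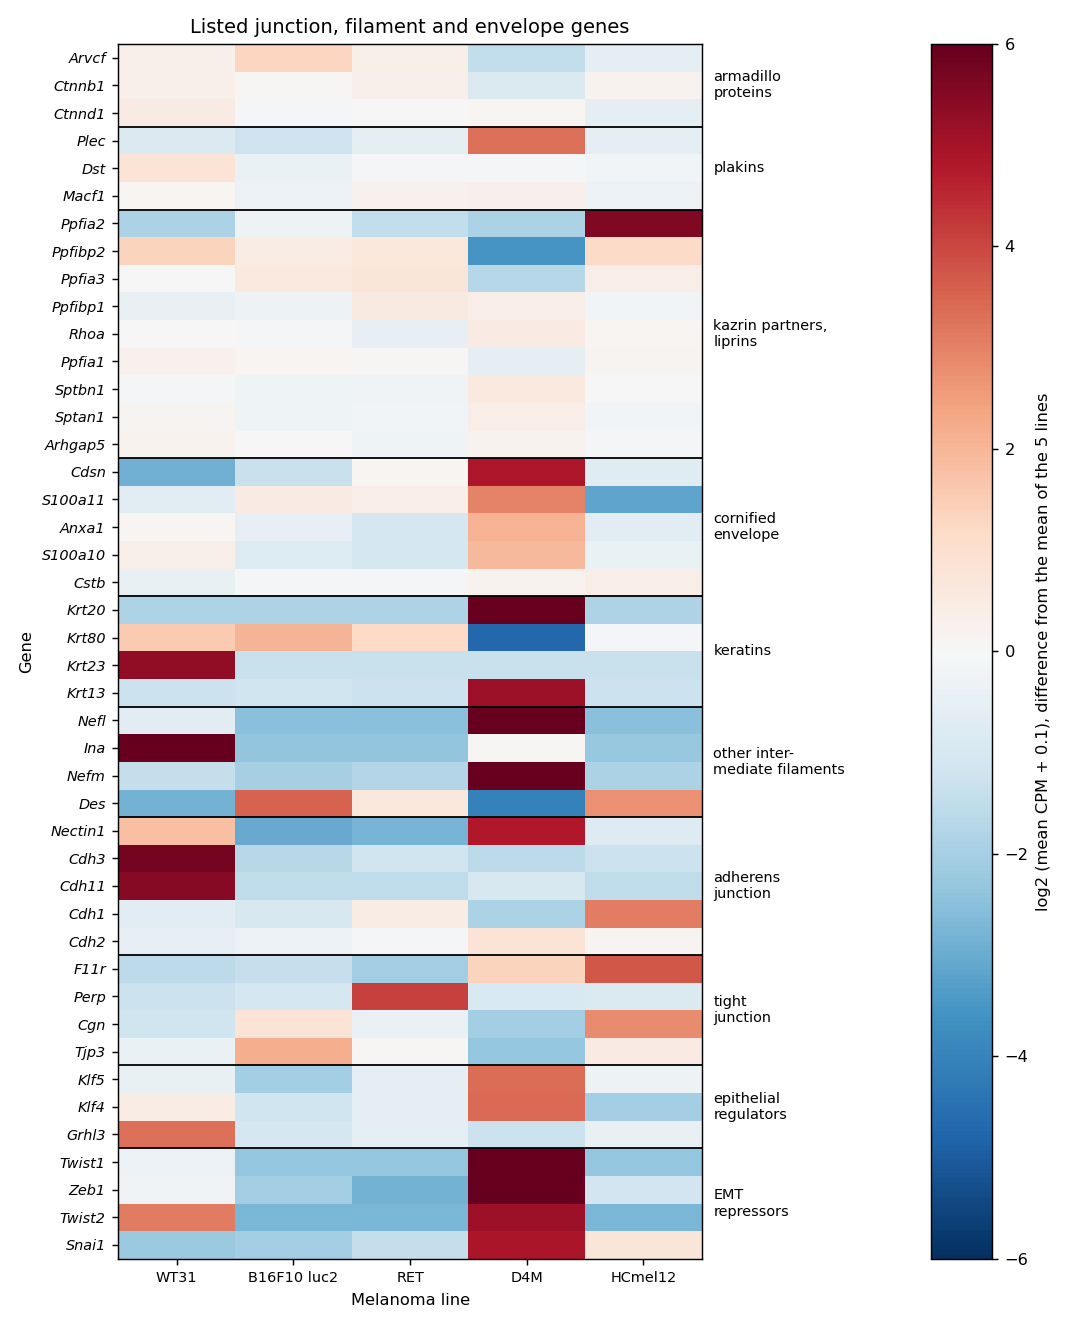
Tested genes of the lists, in the larger lists mainly those with the widest range between lines (vertical, grouped by list) in the 5 lines (horizontal), coloured by log2 of the mean CPM plus 0.1 after subtracting the mean of the 5 lines, with colours saturated beyond 6 in either direction. Most of the strongest red fields are in D4M, where 26 listed genes were higher than in each other line, and Arvcf and Krt80 are lower in both LM-melanoma lines.

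The 5 tested genes with the distribution most like that of Kazn were taken by Pearson correlation of log2 CPM over the 25 libraries, which fall into 5 lines and are not independent. They were St6galnac3 (r = 0.985), Lmx1b (0.984), Epb41l4a (0.984), Map7d2 (0.982) and Ppp1r16b (0.974). St6galnac3, a sialyltransferase, was at 13.9 ± 0.509 CPM in B16F10 luc2, 10.5 ± 1.24 in WT31 and 7.68 ± 1.01 in RET, with 0 in both lines of LM-melanoma. The transcription factor gene Lmx1b had 21.4 ± 0.92 CPM in B16F10 luc2 and at most 0.0364 CPM in the mean of either LM-melanoma line. Epb41l4a, of the band 4.1 family of membrane skeleton proteins, was at 28.9 to 49.3 CPM in HIM-melanoma and 0.29 to 0.426 CPM in LM-melanoma. In these 3 genes B16F10 luc2 exceeded WT31, unlike in Kazn, and in Ppp1r16b the order of the lines of HIM-melanoma was that of Kazn (17.2, 7.20 and 3.47 CPM in WT31, B16F10 luc2 and RET).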

How the data were processed

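RNA-seq of 25 libraries, 5 per line, was used. According to the methods of the study and the submitters' processing notes, the authors trimmed reads with Trim Galore 0.6.4 and assigned them to GRCm38.p6 with kallisto. The authors deposited estimated counts per gene without normalization, whose depth was 24199083 to 25843286 per library. The authors also deposited TPM, scaled by transcript length to 1000000 per library. For D4M replicate 1 TPM values are not analysed here. The annotation release and the step from transcripts to genes are not given in the sources used here. GENCODE M21 supplied symbols for 55144 of 55385 genes.

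Estimated counts were filtered with filterByExpr (edgeR 4.0.16; 15247 genes kept), scaled by TMM factors, transformed with voom and fitted with limma 3.58.1 in R 4.3.3, with 1 mean per line over all 25 libraries. P-values were adjusted per pair of lines over all tested genes (Benjamini-Hochberg, two-sided, threshold 0.05). A gene was commonly regulated when each of the 6 pairs of a HIM-melanoma with a LM-melanoma line passed in the same direction, and set apart in a line when it passed with one sign against each of the 4 others. The labels call the libraries biological replicates and say no more, so that p-values measure the spread between these samples. Some items of the genotypes and lists are not reported here. The members and the lists were chosen with earlier results of these data known. Of each list, the 4 tested genes with the widest range of line means of log2 CPM and the commonly regulated genes could be named, and every gene of the lists of cadherins, plakophilins, plakins and kazrin partners. Folds against a line at 0 used 3 counts over the line. Count folds carry exact 95% intervals. Intervals and limits cover counting error only. Assigned lengths were scaled on genes with a single transcript and at least 500 counts. The fit was tested on simulated data, where voom recovered 200 of 200 genes changed 4-fold in WT31 among 12956 (log2 change 2) with 0 wrong signs. All simulated lines shared the same base levels and a small fixed spread, and genes with few expected counts were left out. Recovery was therefore easy, and the simulation does not bear on genes near 0 in a line, such as Kazn, Ppl and Pkp1. Alternatives were scaling by library size alone or DESeq2 1.42.0 size factors, other filters, edgeR's quasi-likelihood test and DESeq2's Wald test on rounded counts, log2 of TPM with a pseudocount of 1, a fold limit, a replicate block and leaving out each library. Motifs were searched in RefSeq upstream sequences (Python 3.11.15).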

Additional observations from a re-analysis of the deposited data

Results flagged for a closer look

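Each member was examined in each line for a library that stood apart from the other 4 (Dixon's test, ratio above 0.71), which chance gives in about 1 of 20 groups of continuous values. This rate does not hold for counts of a few reads, where a single library above 0 gives the highest ratio by construction. Among the 30 groups whose highest estimated count exceeded 3 (for Kazn in D4M by a small fraction of a count), 5 such libraries were found. Kazn in D4M replicate 1 was at 0.138 CPM (3 counts), with 0 in the other 4 libraries. Dsp in D4M replicate 5 was at 0.17 CPM (4 counts), with 0 in the others. Evpl in RET replicate 2 was at 0.223 CPM, with 0.0788 to 0.12 CPM in the others, and Evpl in D4M replicate 2 at 0.133 CPM, with 0.213 to 0.23 CPM in the others. These 4 values rest on 3 to 6 counts. Pkp2 in HCmel12 replicate 4 was at 3.31 CPM (82 counts), with 1.16 to 1.78 CPM in the others.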

How the results depend on the processing

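The 60 fold changes of the 6 tested members over the 10 pairs of lines were recomputed, which gave 1940 values. With at least 10 counts in every library, only those of Jup and Pkp4 could be recomputed. None of the fold changes that passed the threshold changed sign. Of the recomputed values, 1815 stayed within the spread between replicates and 125 moved by more. Calls were lost for Kazn between WT31 and B16F10 luc2 and for Pkp4 between HCmel12 and RET, as given in the report, and for Pkp4 between WT31 and HCmel12 on log2 TPM (-0.06) and between WT31 and B16F10 luc2 without WT31 replicate 5 (0.13). A fold limit was not among these alternatives. Called differences below a log2 fold change of 1 included Jup in WT31 over HCmel12 (0.63) and Pkp2 in B16F10 luc2 over D4M (0.50). Kazn in WT31 over B16F10 luc2 (0.36) and Pkp4 in HCmel12 over RET (0.14) were also below it. With that limit, these genes would not be set apart as higher in WT31, B16F10 luc2 and HCmel12. Of 816 recomputed counts of genes, 764 stayed within 1.5 times the value of the report. A required log2 fold change of at least 1 left 255 commonly higher and 375 commonly lower genes of 996 and 976. WT31 then had 743 genes above and 487 below each other line, B16F10 luc2 264 and 317, RET 208 and 164, D4M 1605 and 1045, and HCmel12 605 and 260. Of the listed genes, 1 was then commonly higher (Krt80, not Arvcf) and 2 commonly lower, WT31 had 2 lower, B16F10 luc2 2 higher and 1 lower, RET 1 higher and 0 lower, D4M 7 lower and HCmel12 1 lower. With at least 10 counts in every library, fewer genes were tested, and 645 were commonly lower, 1875 higher in D4M and 914 higher in HCmel12. Kazn, Ppl, Pkp1 and Pkp2 did not pass this filter, with 0, 0, 0 and 9 counts in their lowest library, so that it says nothing on the call of Kazn. Of the listed genes, 1 was then commonly higher and 3 commonly lower, WT31 had 3 higher and 3 lower, B16F10 luc2 2 higher, RET 2 lower, D4M 14 higher and 7 lower, and HCmel12 2 higher. On log2 TPM, 612 genes were commonly lower and 812 lower in WT31, and of the listed genes 3 were commonly lower and 3 lower in WT31. With library size alone, 3 listed genes were commonly lower, since Rhoa and Cstb lost the call, and the median of all genes shifted by up to 0.23 on the log2 scale (WT31 minus D4M). Both also lost it on log2 TPM (Rhoa 0.04, adjusted p = 0.54 for WT31 minus HCmel12 with limma). The number of listed genes lower in RET, 1 in the report, was 2 with DESeq2 size factors, 2 with edgeR, 3 with DESeq2's Wald test, 2 with the replicate block and 1 to 3 when single libraries were left out. The causes were not tested. Replicate numbers did not pair the libraries, since deviations from the line means of same-numbered libraries correlated at -0.13 to 0.14 over 50 pairs, and 6 of 25 libraries were nearest to their own number. Depth limits Evpl, Dsp, Dsg2 and Dsc2, for which no library held more than 19.5 counts.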
